A study of Rattus norvegicus with 8 samples.

Results

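The genes examined were 7 genes of thyroid hormone signalling in the rat hypothalamus, of 15159 named genes on the array. They were the deiodinase genes *Dio2* and *Dio3*, the thyrotropin receptor gene *Tshr*, the transporter gene *Slco1c1*, the nuclear receptor genes *Thra* and *Thrb*, and *Crym*, which encodes a cytosolic thyroid hormone binding protein. They were chosen by name and each was represented by its brightest probe, meaning the one whose log2 intensity, averaged over both channels and the 8 arrays, was highest. Male F344N rats with a cannula in the third ventricle were kept in short days (SD), and each had responded to an earlier test injection of angiotensin. They were injected with 5 μl of all-*trans* retinoic acid (RA) or vehicle, and hypothalamic blocks that include the arcuate nuclei were taken 24 hrs later. The methods give 1e-04 M RA and vehicle of DMSO in saline, whereas the labels give 1e-05 M RA and saline, and no age of the rats was found in either. RNA of 4 RA-injected and 4 vehicle-injected rats was compared on 8 two-colour arrays with dye-swap. The comparison asked which hypothalamic transcripts respond to RA. RA was labelled with Cy5 on arrays 1, 3, 6 and 8 and with Cy3 on arrays 2, 4, 5 and 7.

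In the hypothalamus, thyrotropin from the pars tuberalis acts on its receptor on tanycytes, the ependymal cells that line the third ventricle. In long days this pathway raises deiodinase type 2, which makes the active hormone triiodothyronine from thyroxine, and lowers deiodinase type 3, which inactivates both hormones. Thyroxine enters the brain through membrane carriers, and triiodothyronine acts through nuclear receptors that pair with retinoid X receptors. Retinoic acid receptors use the same partners and bind to related DNA motifs, in which the letters AGGTCA recur.

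A RefSeq promoter, from 250 bases before to 50 bases after the start of the transcript in the GRCr8 build, was at hand for 4 of the 7 genes, in 5 windows, as *Thra* had 2 of them. The windows of the 2 deiodinase genes are shown because these genes encode enzymes of opposite effect and their mean log2 ratios lay on opposite sides of 0. Both lie on chromosome 6, *Dio2* on the minus strand at chr6:115410545-115410844 and *Dio3* on the plus strand at chr6:135106822-135107121. Capitals mark the letters TATAAA.
Dio2: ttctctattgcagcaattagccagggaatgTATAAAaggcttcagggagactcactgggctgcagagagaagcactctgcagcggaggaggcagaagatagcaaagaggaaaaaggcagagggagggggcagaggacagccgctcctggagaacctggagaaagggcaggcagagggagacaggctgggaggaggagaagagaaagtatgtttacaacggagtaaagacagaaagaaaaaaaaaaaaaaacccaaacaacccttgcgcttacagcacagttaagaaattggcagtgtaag
Dio3: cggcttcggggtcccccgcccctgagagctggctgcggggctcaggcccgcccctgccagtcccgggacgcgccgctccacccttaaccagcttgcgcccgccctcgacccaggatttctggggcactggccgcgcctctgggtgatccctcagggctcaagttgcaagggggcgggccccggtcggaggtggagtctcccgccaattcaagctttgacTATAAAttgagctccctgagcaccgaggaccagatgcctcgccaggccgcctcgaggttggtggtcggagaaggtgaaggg
The window of *Dio3* was richer in G and C (68.3%) than that of *Dio2* (49%). Counted from the start of the transcript, TATAAA began at position -31 in *Dio3* and at position -220 in *Dio2*. Over all 33469 promoters, TATAAA was found on either strand in 14.2%. The motif AGGTCA was in none of the 5 windows and in 16.2% of all promoters. The letters TGACG, a core of the cyclic AMP response element, were in the *Thrb* window at position -50, and in 21.2% of all promoters. The searches covered these windows alone, and matches of letters are not evidence of binding.

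None of the 7 genes was called at the methods' threshold, which is an unadjusted p under 0.01 in limma (0 of 7). Over the whole array 3.25% of 30367 probes and 4.31% of 15159 named genes passed it. With an unadjusted p under 0.05, 1 of the 7 genes was found (*Slco1c1*), against 13.1% of named genes, and over all probes no adjusted p was under 0.05 (0 in limma, whereas 3292 probes had an unadjusted p under 0.05). The mean log2 ratio of RA over vehicle was below 0 in 5 of the 7 genes and above 0 in *Dio3* and *Crym*, with a median of -0.10 against -0.0046 over all named genes. That median is the value of *Thrb*, whose probe was near background on every array. A 95% interval that excluded 0 was found for *Slco1c1* alone. With 4 couples of arrays, the exact two-sided sign-flip permutation test cannot give a p below 0.125, and its p ranged from 0.25 to 1 over the 7 genes.

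**Figure D1:**
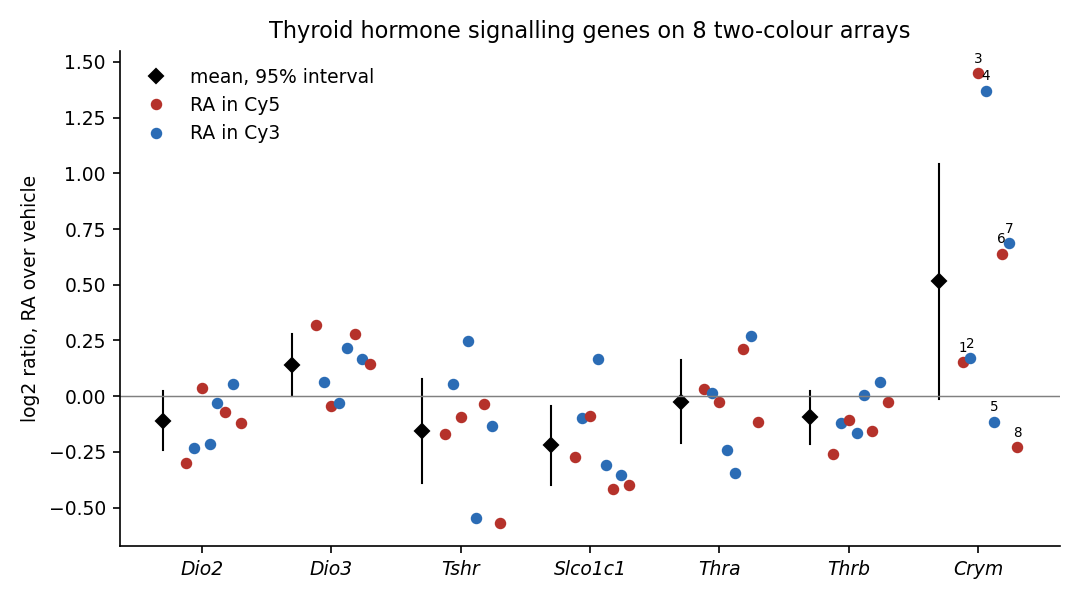
Log2 ratio of RA over vehicle for the 7 genes (vertical axis) on each of the 8 arrays, as points from array 1 on the left to array 8 on the right, red with RA in Cy5 and blue with RA in Cy3. Black diamonds are the means with 95% intervals from limma, and the numbers over the points of *Crym* are array numbers. *Crym* spread from -0.23 to 1.45, whereas the other genes lay between -0.57 and 0.32.

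Which arrays carry the same RNA is not given in the sources used here, so limma was fitted on all 24 ways to couple the arrays of both dye orders. Each gene is given its largest p, the standard error (SE) of that coupling and its widest 95% interval. Across probes, which are not independent replicates, the correlation between arrays of opposite dye order was highest for arrays 6 and 7 (r = 0.618) and arrays 8 and 5 (r = 0.550). It was low for arrays 1 and 2 (r = 0.099) and arrays 3 and 4 (r = 0.090). Other pairings were higher, such as arrays 8 and 7 (r = 0.338), and within a dye order r ran from 0.273 to 0.529. Between 57.4% and 74.6% of probes were well above background per array and channel. The slide held arrays 1 to 4 in row 1 and arrays 5 to 8 in row 2. As the rats on each array are not given, differences between rows and between rats cannot be told apart. Of 9 measured genes among reactive astrocyte markers, 8 were called higher after RA (such as *Gfap* with 1.40 and *Timp1* with 2.19 on the log2 scale), and the array medians were 0.55 to 1.02 in row 1 and 1.76 to 2.79 in row 2. On arrays 5 and 8, hypothalamic markers were low after RA (medians of -0.59 and -0.63, against -0.05 to 0.18 on the other 6 arrays). On arrays 6 and 7, choroid plexus markers were low after RA (medians of -1.35 and -1.27), and none of the 11 genes of that list was called (0 in limma, and also 0 with an unadjusted p under 0.05). Over all named genes the shares were 4.31% and 13.1%. The blocks expressed the hypothalamic markers, as 14 of 15 measured genes of that list were well above background, in either channel, on all 8 arrays, and 1 of them, *Cartpt*, was called lower (-0.42). Of 8 anterior pituitary markers, 4 were well above background in either channel on all 8 arrays, among them *Lhb*, *Cga* and *Pitx1*, whereas *Gh1* and *Prl* were so on 1 array each.

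*Tshr*, the receptor through which thyrotropin acts on tanycytes, had a mean log2 ratio of -0.16 (SE 0.10, limma adjusted p = 0.649). Its ratios on arrays 1 to 8 were -0.17, 0.06, -0.09, 0.25, -0.55, -0.03, -0.14 and -0.57. Both low values came from arrays 5 and 8, of different dye orders, and the other 6 arrays lay on both sides of 0. On those 2 arrays the vehicle level was the highest of the 8, at 8.12 and 7.83 on the log2 intensity scale against 7.38 to 7.80 on the others. Without arrays 8 and 5 the mean ratio was -0.021. The mean was 0.010 in row 1 of the slide and -0.32 in row 2. In bulk tissue, fewer cells of a type and less RNA per cell cannot be told apart.

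A second, dimmer probe of *Tshr* had ratios of -0.22 and 0.11 on arrays 5 and 8 and a mean of -0.09. It was well above background on 2 of 8 arrays for RA and on 2 for vehicle, and its ratios followed the dye, with means of 0.10 (RA in Cy5) and -0.285 (RA in Cy3). The brighter probe was well above background in both channels of all 8 arrays.

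Some other transcripts of the block were also low on arrays 5 and 8. *Tshb*, the beta subunit of thyrotropin, had ratios of -1.15 and -1.52 there, and *Cga*, the alpha subunit that thyrotropin shares with the gonadotropins, had -1.67 and -1.80. *Pomc* and *Agrp*, peptide genes of arcuate neurons, had -1.11 on array 5 and -1.08 and -1.05 on array 8. Not every hypothalamic marker was low on arrays 5 and 8. *Crh* had 0.84 and 0.93 there, *Avp* had -0.13 and -0.0061, and *Npy* had -0.58 and -0.26. On the other 6 arrays *Tshb* lay between -0.64 and 0.21 and *Cga* between -0.27 and 0.48. The part of these differences in the *Tshr* ratio was not tested.

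**Figure D2:**
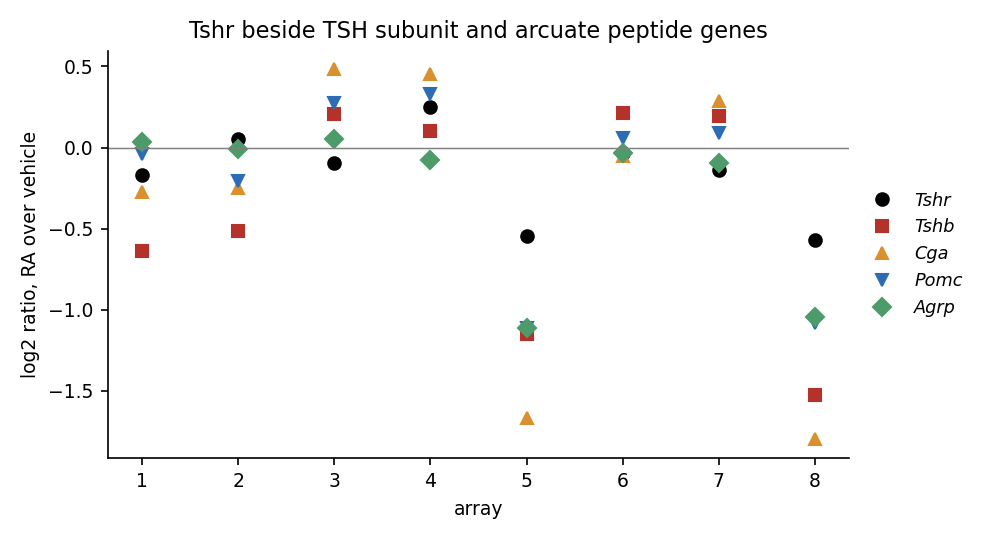
Log2 ratio of RA over vehicle (vertical axis) for *Tshr*, both thyrotropin subunit genes and the arcuate peptide genes *Pomc* and *Agrp* on each of the 8 arrays (horizontal axis). On arrays 5 and 8 each of the 5 genes is below -0.5, with *Cga* lowest at -1.67 and -1.80.

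The deiodinase genes had small mean ratios, below 0 for *Dio2* and above 0 for *Dio3*. *Dio2* encodes the enzyme that activates thyroxine. Its ratios on arrays 1 to 8 were -0.30, -0.23, 0.04, -0.21, -0.03, -0.07, 0.05 and -0.12. It was lower after RA on 6 of 8 arrays, and the 2 above 0 were arrays 3 and 7. The mean was -0.11 (SE 0.06, 95% interval -0.24 to 0.02, limma adjusted p = 0.558), a ratio of 0.927. The mean was -0.11 in either dye order. In row 1 the mean was -0.18 and in row 2 it was -0.04. Levels were 6.56 to 7.08 after RA and 6.67 to 7.12 after vehicle, so that the groups overlapped.

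*Dio3*, which encodes the inactivating enzyme, had ratios of 0.32, 0.06, -0.05, -0.03, 0.22, 0.28, 0.17 and 0.14 on arrays 1 to 8. It was higher after RA on 6 of 8 arrays, and the 2 below 0 were arrays 3 and 4. The mean was 0.14 (SE 0.06, 95% interval -0.00087 to 0.28, limma adjusted p = 0.463), a 1.10-fold ratio. In row 2 all 4 arrays were above 0, with a mean of 0.20, against 0.08 in row 1. The probe was well above background in RA on 5 arrays and in vehicle on 3, and by dye in Cy5 on 7 arrays and in Cy3 on 1. Most of its levels in Cy3, of RA and of vehicle alike, are therefore near the limit of detection. An unadjusted p under 0.01 was reached in 3 of the 24 couplings. With the coupling of highest summed correlation over all probes it was 0.0453 in limma.

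Both deiodinase probes were dim, and the size of their ratios depended on the processing. With the log ratio of the scanner software the mean was -0.27 for *Dio2* and 0.47 for *Dio3*, and neither passed the threshold (unadjusted p of 0.134 and 0.119 in limma). With no background correction the means were -0.093 and 0.10, and the cause of these differences was not tested. Markers of tanycytes and ependymal cells, in which both enzymes are known to be made, had a median of -0.0067 over 10 measured genes. Of these 2 were called, against 4.31% of all named genes. They were *Vim* (0.62) and *Rarres2* (0.40), both higher after RA. The study had picked *Rarres2* from these same arrays as raised by RA, so its call adds no independent evidence. *Rax*, a homeobox gene that marks tanycytes, had a mean ratio of -0.07. Markers of astrocytes and of neurons had medians of -0.12 and -0.13 over 11 and 7 measured genes. The part of any of these markers in the deiodinase ratios was not tested.

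*Slco1c1*, a thyroxine carrier of brain capillaries and astrocytes, had the smallest p of the 7 genes. Its level after RA was 11.55, 11.65, 11.81, 11.81, 11.59, 11.56, 11.57 and 11.54 on arrays 1 to 8 on the log2 intensity scale. After vehicle it was 11.82, 11.75, 11.90, 11.64, 11.90, 11.98, 11.93 and 11.94. The level was lower after RA on 7 of 8 arrays, and array 4 was the exception, with a ratio of 0.17. The ranges overlapped, as vehicle on arrays 2 and 4 and RA on arrays 2, 3 and 4 lay inside the range of the other group. Mean levels were 11.64 ± 0.11 after RA and 11.86 ± 0.11 after vehicle (SD over 8 arrays of 4 rats per group).

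The mean log2 ratio of *Slco1c1* was -0.22 (SE 0.08, 95% interval -0.40 to -0.04), a 14.2% lower level. Its largest unadjusted p over the couplings, 0.0216 in limma, did not pass the threshold of the methods. Its adjusted p was 0.364, and it ranked 1111 among named genes by p. With couples as a random block and a dye term, limma gave an unadjusted p of 0.00647, which passed. That block took the single coupling with the highest summed correlation, and 1 correlation (0.34) for all probes. Over the 24 couplings p ran from 6.89e-04 to 0.0216 and was under 0.01 in 16. The largest p came from the couples with the highest summed correlation, arrays 1 and 2, 3 and 4, 6 and 7, and 8 and 5. By dye order the ratio was -0.29 (RA in Cy5) and -0.15 (RA in Cy3). By slide row it was -0.07 in row 1, where the lowest array was at -0.27, and -0.37 in row 2, where all 4 arrays lay between -0.31 and -0.42.

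Markers were examined for some of the cells that carry *Slco1c1*. Those of endothelial cells had 0 of 10 genes called and ratios from -0.14 to 0.13, with 1 at an unadjusted p under 0.05 in limma. Those of astrocytes had 1 of 11 called, the gap junction gene *Gja1* (-0.22), and a median of -0.12. Over all named genes 4.31% were called and 13.1% had an unadjusted p under 0.05 in limma. As *Slco1c1* was, *Gja1* was lower in row 2 (-0.32) than in row 1 (-0.11). The higher array medians of reactive astrocyte markers also lay in row 2. On arrays 6 and 7, where choroid plexus markers were low, *Slco1c1* was at -0.42 and -0.35, against -0.31 and -0.40 on arrays 5 and 8. The part of any of these in the *Slco1c1* ratio was not tested.

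**Figure D3:**
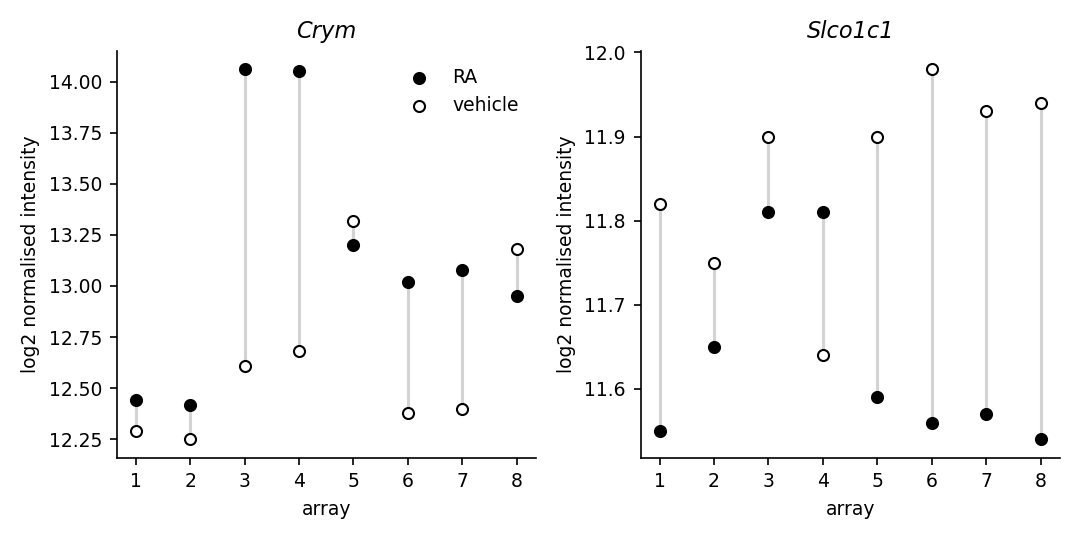
Normalised log2 intensity (vertical axes, which do not start at 0) of *Crym* and *Slco1c1* on each of the 8 arrays (horizontal axes), with filled circles for RA, open circles for vehicle and grey lines that join both channels of an array. RA lies below vehicle for *Slco1c1* on each array but array 4, and *Crym* after RA is highest on arrays 3 and 4, at 14.06 and 14.05.

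*Crym* encodes μ-crystallin, which binds triiodothyronine in the cytosol. It had the largest mean ratio and the largest spread of the 7 genes. On arrays 1 to 8 the ratios were 0.15, 0.17, 1.45, 1.37, -0.11, 0.64, 0.69 and -0.23. The arrays fell into 4 couples of opposite dye, with arrays 3 and 4 highest, 6 and 7 next, 1 and 2 near 0, and 5 and 8 below 0. Within these couples the ratios differed by at most 0.11, whereas the couple means ran from -0.17 to 1.41. By dye order the means were 0.50 (RA in Cy5) and 0.53 (RA in Cy3), and by slide row they were 0.79 (row 1) and 0.25 (row 2).

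The mean log2 ratio of *Crym* was 0.52 (SE 0.22, 95% interval -0.01 to 1.04), a 1.43-fold ratio. It was not called, with an unadjusted p of 0.0542 in limma and an adjusted p of 0.473. This p depended on the coupling. It ran from 7e-06 to 0.0542 and was under 0.01 in 12 of 24 couplings. The couples named above gave the largest p. As a set they had the highest summed correlation over all probes, but arrays 1 and 2 and arrays 3 and 4 correlated little. Mean levels were 13.15 ± 0.63 after RA and 12.64 ± 0.41 after vehicle (SD over 8 arrays of 4 rats per group).

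The spread came from a few channels. After RA the level was 14.06 and 14.05 on arrays 3 and 4 and 12.42 to 13.20 on the other 6. After vehicle it was 13.32 and 13.18 on arrays 5 and 8 and 12.25 to 12.68 on the other 6. Without arrays 3 and 4 the mean ratio was 0.22 (unadjusted p of 0.185 in limma), and without arrays 8 and 5 it was 0.74 (unadjusted p of 0.0088). Arrays 5 and 8 were also those with high vehicle levels of *Tshr* and with low ratios of hypothalamic markers, and the part of these in *Crym* was not tested. The probe of *Crym* had 1 spot per array, so that no second spot could check it.

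The named genes whose 8 ratios were most like those of *Crym*, by root mean square difference over the 8 arrays, were *Des*, *Mgp* and *Thbd*. The differences were 0.36, 0.39 and 0.43, and none of the 3 was called. Their own mean log2 ratios were 0.19 for *Des*, an intermediate filament gene of muscle cells, 0.43 for *Mgp*, a matrix protein gene, and 0.12 for *Thbd*, which encodes thrombomodulin of the vessel wall.

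Of the nuclear receptor genes, *Thra* had ratios of 0.03, 0.01, -0.03, -0.24, -0.35, 0.21, 0.27 and -0.12 on arrays 1 to 8. Arrays 6 and 7 were highest and arrays 4 and 5 lowest, and 4 of 8 arrays were above 0. The mean was -0.02 (SE 0.08, 95% interval -0.21 to 0.16, limma adjusted p = 0.957). The interval covers ratios from 0.865 to 1.12, so a larger change of the mean lay outside it. Vehicle levels were 10.96 and 10.97 on arrays 6 and 7 and 11.21 to 11.55 on the others, while RA levels ran from 11.09 to 11.34. Arrays 6 and 7 were also those with low ratios of choroid plexus markers, and the part of these in *Thra* was not tested.

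*Thrb*, the other nuclear receptor gene, was not well above background in either channel of any array. No fold is therefore given, and its ratios of -0.26 to 0.06, with a mean of -0.10 (limma adjusted p = 0.568), are those of a probe near background.

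Beyond the 7 genes, 39 other genes of the pathway were listed and 34 of them had a named probe. None of the 34 was called (0 in limma), against 4.31% of all named genes. An unadjusted p under 0.05 in limma was found for 3, against 13.1% of all named genes. The log2 ratios of these 34 genes ran from -0.39 to 0.18, with a median of -0.03. Of them 15 were above 0, against 7222 of 15159 named genes, and 30 were within 0.2 of 0. With each possible couple of arrays left out in turn, the count called was 0 to 2. It was 2 without arrays 6 and 7 and without arrays 3 and 4.

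Among 11 measured genes of other carriers, carrier proteins and deiodinase partners, 4 were above 0 and the median was -0.03. *Ttr*, the thyroxine carrier of the choroid plexus and cerebrospinal fluid, had the largest mean of this list, -0.28 (SE 0.98, limma adjusted p = 0.960). It was at -4.48 and -5.11 on arrays 6 and 7 and at 0.57 to 1.76 on the other 6, so the mean described none of the arrays. *Slc7a8*, an amino acid carrier that also moves thyroid hormones, had 0.18 (SE 0.09), with 0.35 in row 2 and 0.0049 in row 1. The genes with an unadjusted p under 0.05 were *Wsb1*, a ubiquitin ligase adaptor for deiodinase type 2, with 0.17 (unadjusted p of 0.0143 in limma), and *Secisbp2*, needed to build selenoproteins such as the deiodinases, with 0.15 (unadjusted p of 0.0404). Both were above 0 on 7 of 8 arrays and were named after their values were seen.

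Among 8 measured receptor partners, which are retinoid X receptors and cofactors, 5 were above 0 and the median was 0.01. The largest means were 0.12 for the corepressor subunit gene *Gps2* (SE 0.05) and -0.10 for *Tbl1xr1* of the same complex (SE 0.08). No gene of this list had an unadjusted p under 0.05.

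Of 7 genes known to respond to thyroid hormone in brain, 4 were above 0 and the median was 0.02. *Mbp*, the myelin basic protein gene, had -0.25 (SE 0.07) and the lowest p of the other pathway genes (unadjusted p of 0.0106 in limma). It was below 0 on 6 of 8 arrays, and its mean was -0.067 (RA in Cy5) and -0.44 (RA in Cy3) by dye order. Oligodendrocyte markers lay below 0 in 6 of 7 genes, with a median of -0.19 and *Opalin* called lower (-0.27). Over all named genes 4.31% were called and 7222 of 15159 were above 0. The part of oligodendrocyte markers in the *Mbp* ratio was not tested. *Klf9*, a transcription factor gene induced by thyroid hormone, had -0.12 (SE 0.08), with -0.51 and -0.36 on arrays 6 and 7.

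In the axis of thyrotropin-releasing hormone and thyrotropin, 2 of 8 genes were above 0 and the median was -0.07. *Tshb* (-0.39, SE 0.24, limma adjusted p = 0.631) and *Cga* (-0.35, SE 0.31, limma adjusted p = 0.774) had the largest means. On the 6 arrays other than 5 and 8, *Tshb* was above 0 on 4 and *Cga* on 3.

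**Figure D4:**
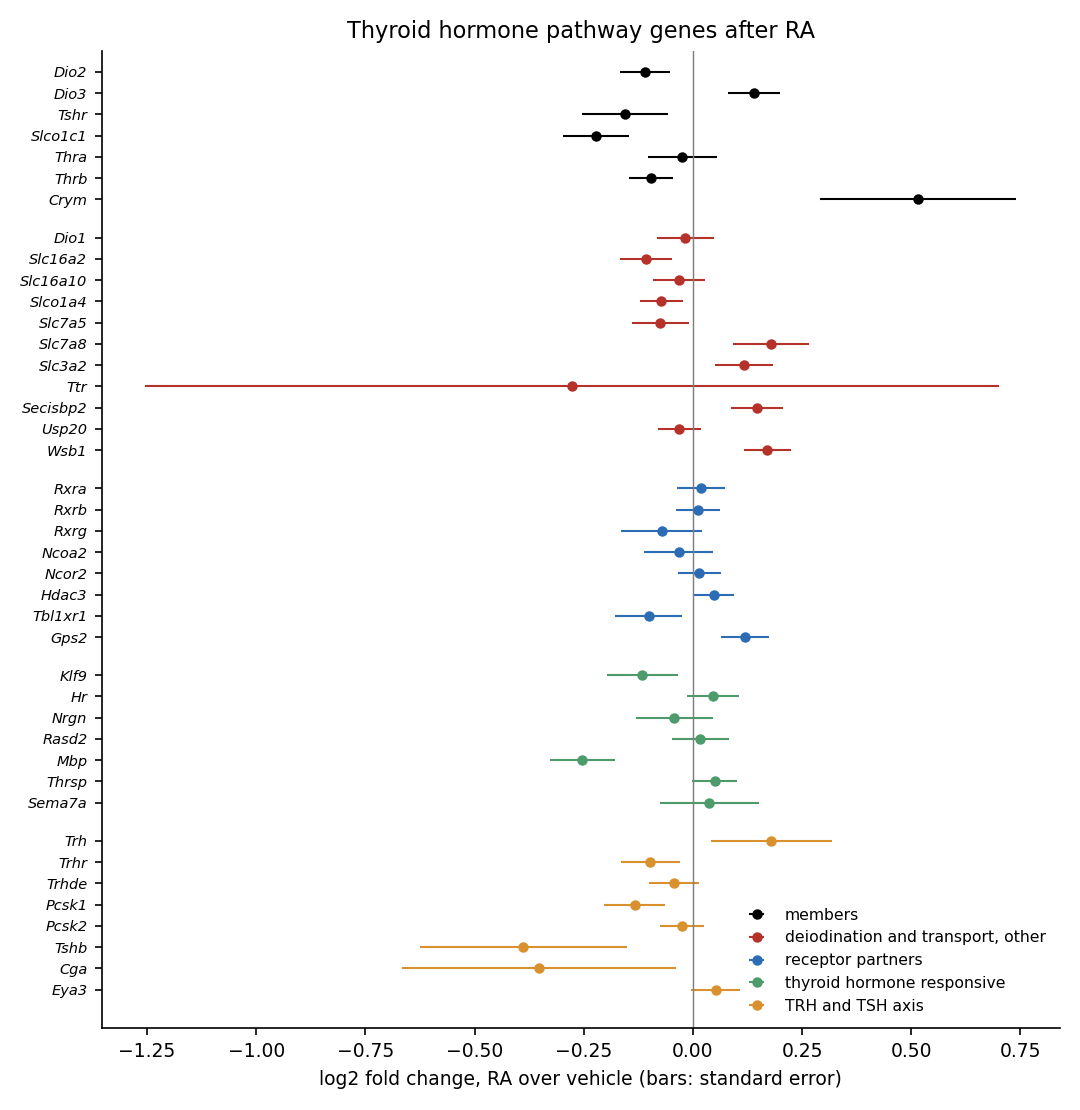
Mean log2 ratio of RA over vehicle with its standard error from limma (horizontal axis) for the 7 genes ("members", black) and the 34 other measured genes of the pathway lists (vertical axis). *Crym* (0.52) and *Tshb* (-0.39) have the largest means, and *Ttr* has the largest standard error (0.98).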

How the data were processed

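RNA of 4 RA-injected and 4 vehicle-injected rats was compared on 8 two-colour arrays, with 4 arrays per dye order. For each spot the authors deposited Cy3 and Cy5 intensity values, Agilent's log10 ratio of Cy5 over Cy3, and a table of normalised log2 ratios. Their methods name loess, averaging of identical probes, limma and dye-swap as a block.

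Using limma 3.58.1 in R 4.3.3, median intensities were corrected by normexp (offset 50), control and outlier spots were left out, loess was applied within arrays and spots of 30367 probes were averaged. A probe counted as well above background when the scanner software marked a share of at least 0.5 of its spots so. Levels per channel were taken after Aquantile scaling, and ratios were turned to RA over vehicle. An intercept was fitted on the means of 4 couples of arrays in all 24 couplings, the largest p was kept and adjusted by Benjamini-Hochberg over all probes, and the methods' threshold (unadjusted p under 0.01) defined a call. The p values measure the spread between the means of 4 couples of arrays. Some arrays share RNA, and the 4 rats per group limit precision. The fit was tested on simulated data. Alternatives covered the background correction, normalisation, filters, couplings, dye orders, slide rows and each couple of arrays left out.

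Accessions were matched, without versions, to RefSeq genes of GRCr8, which named 18006 probes. The 7 genes and all lists (4 pathway lists and markers of 10 cell or tissue types) were chosen with earlier results of these data known. The text names the 7 genes with all their probes, pathway genes that were called or else at most 2 per list with the largest mean among genes well above background, and 3 genes most like a member with a range above 1. Marker genes and genes outside this rule were named after their values were seen.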

Additional observations from a re-analysis of the deposited data

How the results depend on the processing

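The log2 ratios of *Dio2* (-0.27 to -0.04), *Dio3* (0.08 to 0.47) and *Thrb* (-0.22 to -0.03) kept their sign and stayed uncalled under the alternatives run for them, of which there were 30, 29 and 29, but limma called *Dio3* in 3 of the 24 single couplings. Neither *Dio3* nor *Thrb* has a value with only probes well above background. Over 30367 probes the count called was 330 with the Agilent log ratio, 1786 with couples as a random block (correlation 0.34), 2485 with 8 independent arrays, 2169 with RA in Cy5 alone, 2320 with RA in Cy3 alone and 3112 with the slide row as a block, and 456 to 1110 with a couple of arrays left out. Of the 7 genes, 1 was called with a random block, with 8 independent arrays, with RA in Cy5 alone, in row 1 alone, in row 2 alone and with the row as a block, and 0 to 1 with a couple left out. That gene was *Crym* in row 1 (0.79) and without arrays 8 and 5, and *Slco1c1* elsewhere. *Slco1c1* was at -0.22 with 8 independent arrays (unadjusted p of 0.00468 in limma), a random block (0.00647) and the row block, at -0.29 with RA in Cy5 alone, at -0.37 in row 2 alone, and between -0.31 and -0.17 with a couple left out. It passed without arrays 1 and 4, 3 and 4, and 6 and 4 (-0.28, -0.31 and -0.25). *Crym* ran from 0.22 to 0.74 with a couple left out. *Thra* was above 0 with RA in Cy5 alone (0.027) and in row 2 alone (0.0058), and ran from -0.11 to 0.045 with a couple left out. *Tshr* was at 0.010 in row 1 alone. The count of other pathway genes called, an alternative added after seeing the data, was 0 to 4. The fits on 8 independent arrays and on the row block count arrays that share RNA as separate samples, so their p values are too small. The random block used 1 coupling, and the couple means of that coupling gave *Slco1c1* an unadjusted p of 0.0216 in limma. The causes were not tested.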

Other observations

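*Trh*, the gene of thyrotropin-releasing hormone, had a mean log2 ratio of 0.18 (SE 0.14, limma adjusted p = 0.731) and was named after its values were seen. Its ratios were 0.80 and 0.78 on arrays 1 and 2, of opposite dye order, and -0.10 to 0.18 on the other 6 arrays. It was 0.38 in row 1 of the slide and -0.02 in row 2. Neuron markers had a median of -0.13 over 7 genes, with *Nefl* called lower (-0.30), and microglia markers had a median of 0.37, with 3 of 7 called higher and *Tmem119* lower (-0.52). Anterior pituitary markers had 0 of 8 genes called (0 in limma, and also 0 with an unadjusted p under 0.05). Over all named genes the shares were 4.31% and 13.1%. No gap of a single array within a dye order was large enough to mark it as an outlier, in 14 groups of 4 ratios.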
